A study of Homo sapiens with 6 samples.

Results

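Cells attach to the surrounding matrix through integrins and the protein complex that assembles on their cytoplasmic tails, and 45 genes of this integrin adhesion complex were examined here in BT-549 cells. The members are a list chosen by gene symbol, with earlier results of these data known. They are 13 integrin alpha subunits, 8 integrin beta subunits, 6 genes of the ILK, PINCH and parvin group, 4 talins and kindlins, 8 linkers to actin, 5 kinases and scaffolds, and ICAM1. All 45 symbols were found once among the 63140 genes listed in the files, and 37 of them were among the 14451 genes that had enough counts to be tested. BT-549 is an established triple negative breast cancer line, and the libraries are labelled wild type. RNA was taken from 3 wells kept for 24 h in adipocyte-conditioned medium (ACM) and from 3 kept for 24 h in unconditioned medium (UCM). ACM was an insulin, oleate and albumin medium in which mouse OP9 cells had turned into adipocytes. The formula of UCM is not given in the sources used here, so serum, oleate, insulin and base medium cannot be told apart from adipocyte secretions. The labels and the methods differ on whether ACM was diluted: the labels give 50% ACM, and the methods describe undiluted ACM for RNA-seq. None of these cells carried the study's transgene, which in a separate clone had landed in an intron of PARVA.

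Integrins are pairs of an alpha and a beta subunit that span the membrane and bind matrix proteins such as fibronectin, vitronectin, laminin and collagen. Talin and kindlin bind the tail of the beta subunit and switch the receptor to its active form, while ILK, PINCH and parvin form a scaffold that joins the receptor to actin, and FAK, SRC, paxillin and p130Cas pass the signal on. ICAM1 sits on the other side of such contacts as a ligand of the leukocyte integrins. In breast cancer cells these genes are known for their part in spreading, migration and survival on matrix.

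Total expected counts lay between 18011670 and 21053257 in the ACM libraries and between 17135288 and 20975782 in UCM. The labels call the cells epithelial, but 7 epithelial markers summed to no more than 2.69 transcripts-per-million units (TPM) in any library, with CDH1 at most 0.73 TPM and ESRP1 at 0, against 4574.9 to 5368.8 TPM for 7 mesenchymal markers led by VIM. ESR1 and PGR had no count in any library, and ERBB2 stood at 25.4 to 32.4 TPM. Of 9 adipocyte markers 5, among them ADIPOQ and LEP, had no count in any library, and the summed level was 3.77 to 6.41 TPM in ACM and 3.23 to 3.93 TPM in UCM, nearly all of it CFD. The 7 leukocyte markers summed to 12.9 to 31.0 TPM in ACM and 6.16 to 8.38 TPM in UCM; this was mostly CD68, which rose with a log2 fold change of 1.76 (edgeR adjusted p = 0.0335), while PTPRC did not pass 0.18 TPM and CD3E and LYZ were at 0. UCM replicates 2 and 3 were close to each other, with a chi-square per gene of 2.32, while UCM replicate 1 differed from them by 21.5 and 19.9 and the ACM libraries differed from each other by 13.1 to 18.8. Results that rest on UCM replicate 1 are therefore also given without it. That leaves UCM replicates 2 and 3, whose small spread is then the whole spread of UCM. Over all genes, 738 rose in that set, against 125 without UCM replicate 2 and 156 without UCM replicate 3. A smaller adjusted p in that set is therefore not read as a stronger result. The replicates are described as wells of a 6-well plate, so the p-values measure the spread between wells and not between independent experiments. In RNA from whole cultures, a change in the share of some cells and a change in RNA per cell cannot be told apart.

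Of the 37 members tested, 5 rose in ACM and 1 fell. The 5 that rose were ITGB3, ITGB5, ITGA3, BCAR1 and ICAM1, and the 1 that fell was FERMT2, which encodes kindlin-2. These are 13.5% and 2.7% of the members tested, where 3.35% of all genes tested rose and 2.21% fell by the same rule, an adjusted p at or below 0.05 in edgeR's quasi-likelihood test with Benjamini-Hochberg adjustment over all genes. The list was chosen with earlier results known, and its genes were not matched to all genes by level. Shares of members set beside those of all genes are therefore descriptions and not tests. At an unadjusted p at or below 0.05 the counts were 12 higher (32.4%, with 11.9% among all genes) and 4 lower (10.8%, with 11.5%). All 3 ACM libraries lay above all 3 UCM libraries for 11 members (29.7%, with 13.9% of all genes) and below them for 6 (16.2%, with 15.1%), and the groups overlapped for the other 20. The median log2 fold change over the 37 members was 0.04, with a range from -0.57 to 1.17, and over all genes tested it was -0.01. Without UCM replicate 1, 7 members rose (18.9%, with 5.03% of all genes), ITGAV and PXN joining the 5 above, and FERMT2 alone fell (2.7%, with 3.90%). The count that rose was 4 without ACM replicate 1 (10.8%, with 2.83% of all genes), 3 without UCM replicate 3 (8.11%, with 1.06%) and 2 (5.41%) without ACM replicate 2, ACM replicate 3 or UCM replicate 2, where 1.34%, 2.17% and 0.846% of all genes rose. Without ACM replicate 3, 2 fell (5.41%, with 1.29% of all genes), PARVA being the other. It was 2 that rose with effective lengths as offsets (5.41%, with 1.88%) and 1, ICAM1, with limma on log2(TPM + 1) (2.7%, with 1.59%). With replicates 2 and 3 of each group only, a choice made after seeing the data, 8 members rose, ITGB1 joining the 7 (7.07% of all genes), and FERMT2 fell (5.04% of all genes).

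**Figure D1:**
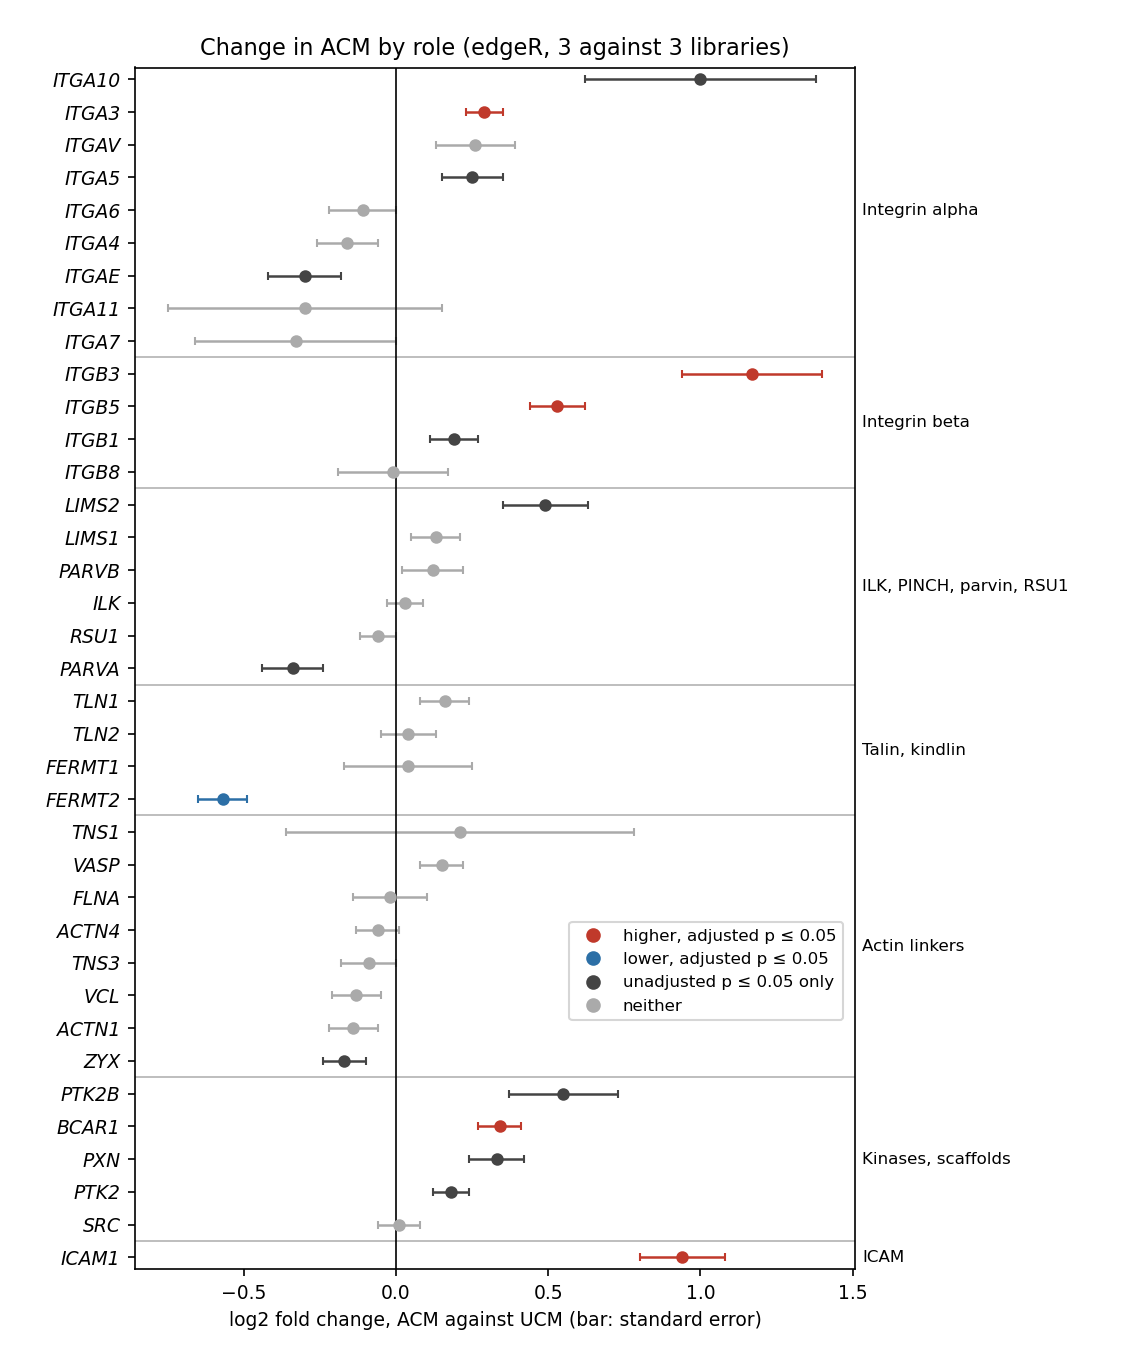
Log2 fold change in ACM against UCM for the 37 members tested (x axis), ordered within each role, with bars of 1 standard error from edgeR on 3 against 3 libraries; colour gives the test's outcome. The 5 members that rose and FERMT2, the 1 that fell, come from 5 of the 7 roles, ITGB3 and ITGB5 both being beta subunits, and the 8 actin linkers all lie between -0.17 and 0.21.

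The RefSeq promoter table holds 34 of the 45 members. The stretches before the start of ICAM1, ITGB5, BCAR1 and FERMT2 are shown because these 4 are the members of the table whose level changed; ITGB3, ITGA3 and PARVA have no entry. Each reads 5′ to 3′ on the gene's own strand in GRCh38.p14 and covers the 250 bases before the RefSeq start. For BCAR1 only the first 204 of these 250 bases are shown, and those nearest the RefSeq start are left out. Positions of matches are counted from the RefSeq start, also for BCAR1. Capitals mark every match to GGAANTTCC (a REL-type NF-κB palindrome), TGANTCA (AP-1), GGAATG (TEAD), GGGCGG (the SP1 GC box) or the SRF CArG box. Each was searched on both strands, with overlapping matches merged.
ICAM1, chr19:10270870-10271119, plus strand: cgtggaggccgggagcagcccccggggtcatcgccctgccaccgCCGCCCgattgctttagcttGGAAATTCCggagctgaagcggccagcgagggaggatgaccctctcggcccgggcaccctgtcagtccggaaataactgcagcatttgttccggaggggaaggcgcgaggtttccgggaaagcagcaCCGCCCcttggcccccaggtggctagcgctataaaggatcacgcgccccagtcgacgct
ITGB5, chr3:124901419-124901668, minus strand: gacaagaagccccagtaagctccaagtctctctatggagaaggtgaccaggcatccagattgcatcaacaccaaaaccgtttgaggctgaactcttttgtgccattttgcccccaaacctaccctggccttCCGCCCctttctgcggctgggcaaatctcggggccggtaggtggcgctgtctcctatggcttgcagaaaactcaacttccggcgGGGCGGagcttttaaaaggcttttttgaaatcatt
BCAR1, chr16:75268054-75268257, minus strand: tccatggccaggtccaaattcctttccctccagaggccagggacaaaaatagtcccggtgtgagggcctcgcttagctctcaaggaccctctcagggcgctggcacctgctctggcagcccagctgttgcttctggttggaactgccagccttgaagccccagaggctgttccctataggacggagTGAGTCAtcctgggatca
FERMT2, chr14:52951051-52951300, minus strand: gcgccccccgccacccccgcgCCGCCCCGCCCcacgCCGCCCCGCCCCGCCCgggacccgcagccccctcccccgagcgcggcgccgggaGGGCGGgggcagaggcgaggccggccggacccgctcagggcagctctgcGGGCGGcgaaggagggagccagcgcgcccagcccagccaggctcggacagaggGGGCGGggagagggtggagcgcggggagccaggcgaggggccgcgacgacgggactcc

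The REL-type NF-κB palindrome stood in the ICAM1 stretch, 186 to 178 bases before the start. ICAM1 was the 1 member with it among the 29 tested members searched, while 0.831% of 27305 promoters of the same length held it. Other forms of the NF-κB site were not searched. An AP-1 match lay 64 to 58 bases before the BCAR1 start, where 6.6% of all promoters and 2 of the 29 members (BCAR1 and ACTN4) had one. FERMT2 held 8 GC boxes, 5 of them in 2 overlapping runs, ITGB5 and ICAM1 held 2 each, and BCAR1 held none. GC boxes were found in 18 of the 29 members (62.1%) and 42.3% of all promoters. GC content was 84.4% before FERMT2, 66.0% before ICAM1, 60.4% before BCAR1 and 52.8% before ITGB5, against medians of 71.2% for the tested members and 58.0% for all promoters. The BCAR1 value is for all 250 bases, including those not shown. GGAATG was in 4 of the 29 members and 11.9% of all promoters, and the CArG box in 2 members, FLNA and RSU1, and 1.14% of all promoters. These are matches of letters and say nothing of whether a factor was bound.

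Levels between genes were compared as TPM, which is scaled by length. In UCM the most abundant members were actin linkers and the common beta subunit: FLNA, the actin crosslinker filamin A, at 1412.9 ± 206.7 TPM (SD, n = 3), ITGB1 at 890.0 ± 9.84 and ACTN4 at 709.4 ± 11.2. ZYX followed at 401.6 ± 11.3 TPM and ACTN1 at 327.5 ± 19.7. Below them came BCAR1 at 205.5 TPM, VASP at 162.3, TLN1 at 161.0, RSU1 at 133.2, VCL at 120.8, PXN at 119.4 and ILK at 113.6, and the libraries of VASP and TLN1 overlapped, as did those of neighbours in the order from RSU1 to ILK. PARVA ranked 26 of 45 at 17.2 ± 1.29 TPM and ITGB3 ranked 31 at 3.84 ± 1.56. The other 8 members were too low to be tested, with between 0 and 10 counts in every library. They were ITGA1, ITGA2, ITGA8, ITGA9, ITGB2 and ITGB7, the beta subunits of leukocyte integrins, and ITGB4 and ITGB6, which are typical of epithelia, and a difference in them was not detectable at this depth.

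**Figure D2:**
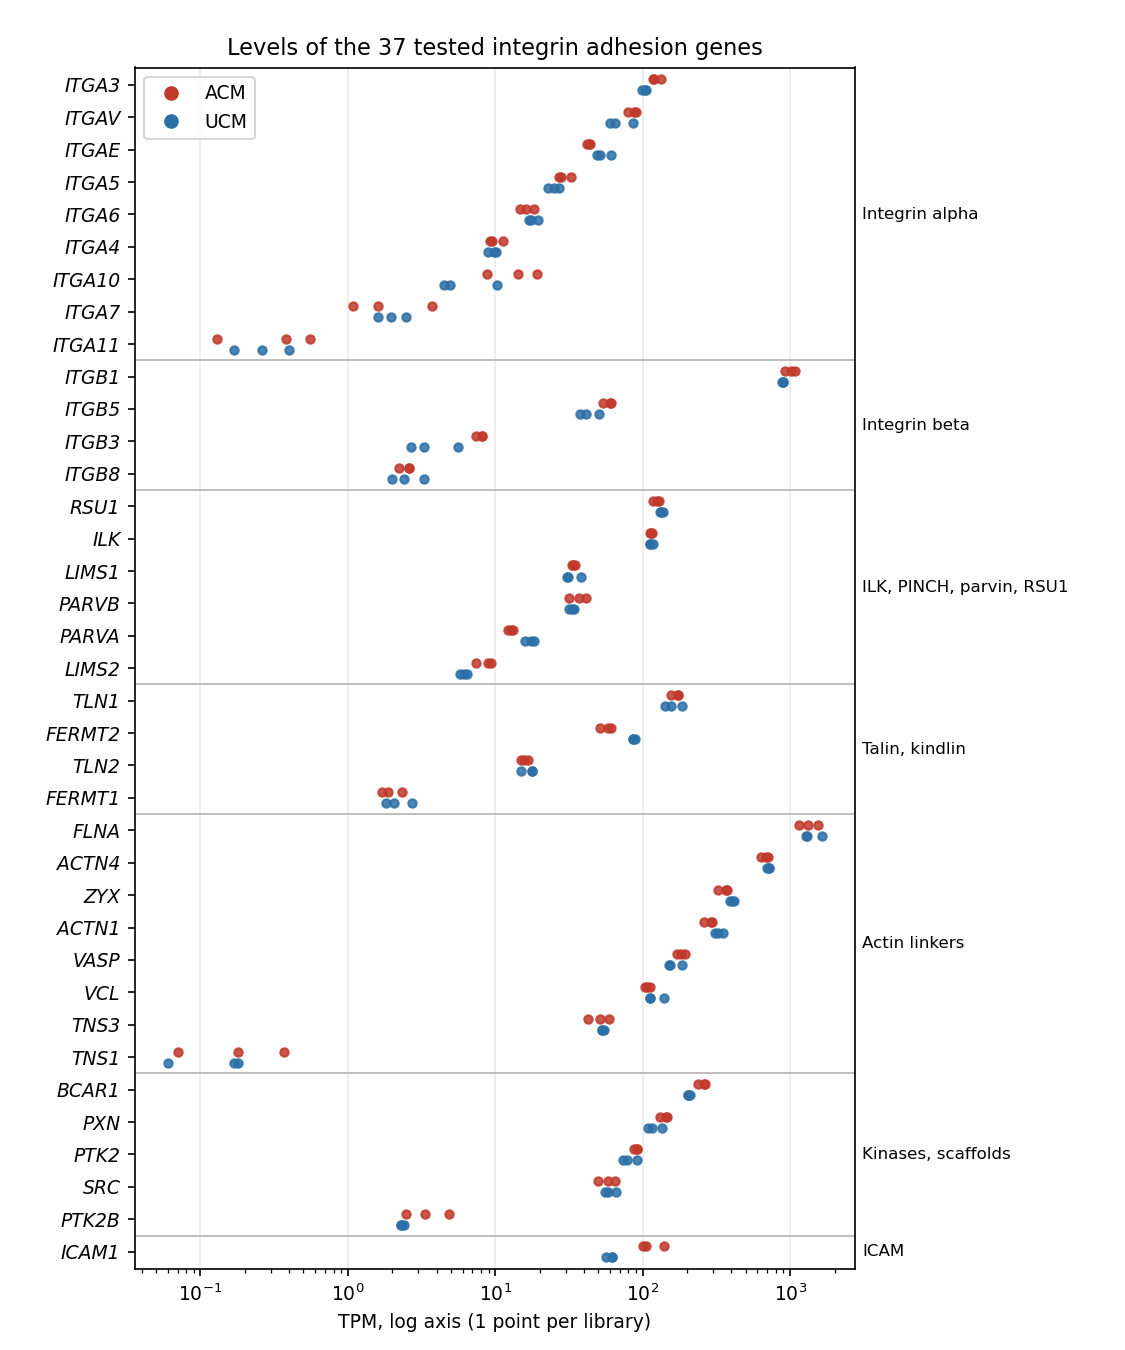
TPM of the 37 members tested (x axis, log scale), 1 point per library, ACM in red and UCM in blue, in order of the UCM mean within each role. The levels run from below 1 TPM for TNS1 and ITGA11 to above 1000 TPM for FLNA, and the groups lie apart for FERMT2, ICAM1 and ITGB3, among others.

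Among the beta subunits, ITGB3 and ITGB5, the partners of alpha V in vitronectin receptors, rose, while ITGB1, the partner of most alpha subunits, was higher in every ACM library without passing the test. ITGB3 (chr17:47253827-47313743) stood at 29.8, 31.1 and 26.8 CPM (counts-per-million units, scaled by TMM) in ACM replicates 1 to 3 and at 18.1, 11.3 and 9.21 CPM in UCM. All ACM libraries lay well above UCM, whose replicate 1 was the highest of its group. The means were 29.2 ± 2.20 and 12.9 ± 4.67 CPM (SD, n = 3), a log2 fold change of 1.17 (SE 0.23, edgeR adjusted p = 0.0301), the largest of any member. Without UCM replicate 1 the log2 fold change was 1.51 (edgeR adjusted p = 7.75e-05). The call was lost without ACM replicate 1 (adjusted p = 0.0744), ACM replicate 2 (0.105), ACM replicate 3 (0.0603) or UCM replicate 2 (0.133), and with effective lengths as offsets (0.0560) or limma on TPM (0.0630), the direction being kept each time. A gene on the same strand that overlaps ITGB3, ENSG00000259753, took 48 counts in ACM and 7 in UCM, 2.27% of the counts of ITGB3.

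ITGB5 (chr3:124761948-124901418) had 109.1, 119.1 and 102.7 CPM in ACM and 83.9, 71.9 and 72.5 CPM in UCM. The groups did not overlap, and UCM replicate 1 was again nearest to ACM. The log2 fold change was 0.53 (SE 0.09, edgeR adjusted p = 0.0080), from 76.1 ± 6.78 to 110.3 ± 8.26 CPM, and 0.62 without UCM replicate 1. It held in each of the 6 sets that left out 1 library and was lost with effective lengths as offsets (log2 fold change 0.46, adjusted p = 0.0637) and with limma on log2(TPM + 1) (0.43, adjusted p = 0.0855). ITGB1 (chr10:32887273-33005792) had 2281.0, 2696.6 and 2439.4 CPM in ACM and 2154.6, 2164.1 and 2170.3 CPM in UCM. The UCM values of ITGB1 lay close together and every ACM value was above them, with a log2 fold change of 0.19 (SE 0.08, edgeR adjusted p = 0.178). ITGB8, which with alpha V binds latent TGF-beta, had a log2 fold change of -0.01 (SE 0.18, edgeR adjusted p = 0.986).

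As a share of the summed TPM of the 8 beta subunits, ITGB1 made up 93.5% ± 0.629 in ACM and 94.6% ± 0.743 in UCM. ITGB3 made up 0.813%, 0.707% and 0.686% of the sum in ACM and 0.586%, 0.353% and 0.283% in UCM, so its share was higher in every ACM library yet below 1% throughout. ITGB5 made up 6.08%, 5.22% and 4.98% in ACM and 5.24%, 4.08% and 4.41% in UCM, which overlap. The summed beta subunits were 1074.1 ± 72.5 TPM in ACM and 923.6 to 957.6 TPM in UCM, without overlap, and most of that difference in TPM was ITGB1. These shares are descriptions and were not tested.

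Of the 9 alpha subunits tested, 1 rose (11.1%, with 3.35% of all genes) and none fell in edgeR's test, none being called lower by DESeq2 or limma. At an unadjusted p at or below 0.05, 3 were higher (33.3%, with 11.9% of all genes) and 1 lower (11.1%, with 11.5%). Log2 fold changes were positive for 4 and negative for 5. ITGA3 (chr17:50055968-50090481), whose product pairs with beta 1 as a laminin receptor and which was the most abundant alpha subunit, had 384.5, 372.5 and 366.5 CPM in ACM and 304.2, 303.5 and 311.0 CPM in UCM. The 2 groups were tight and apart, at 374.5 ± 9.17 and 306.2 ± 4.13 CPM. The log2 fold change was small, 0.29 (SE 0.06, edgeR adjusted p = 0.0243). It stayed between 0.28 and 0.31 whichever library was left out, but the adjusted p passed 0.05 without ACM replicate 2 (0.0685), ACM replicate 3 (0.0507), UCM replicate 2 (0.140) or UCM replicate 3 (0.101), with effective lengths as offsets (0.0601) and with limma on TPM (0.0916).

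ITGA10, a collagen receptor subunit best known from cartilage, had the second largest log2 fold change among the members tested, with a wide spread in both groups. Its levels were 37.0, 48.6 and 24.6 CPM in ACM and 27.5, 14.4 and 12.8 CPM in UCM, and ACM replicate 3 fell below UCM replicate 1. The log2 fold change of 1.00 (SE 0.38, edgeR adjusted p = 0.186) did not pass, nor did the value of 1.44 without UCM replicate 1 (adjusted p = 0.0616). ITGA5, the fibronectin receptor subunit, had 74.1, 91.5 and 69.7 CPM in ACM and 70.8, 63.1 and 63.1 CPM in UCM. The groups of ITGA5 overlapped, with ACM replicate 2 far above the rest, and the log2 fold change was 0.25 (SE 0.10, edgeR adjusted p = 0.176).

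ITGAE, the alpha E subunit that lets some T cells bind E-cadherin, was the 1 alpha subunit with every ACM library below UCM. It had 12.9, 12.6 and 11.9 CPM in ACM and 14.6, 17.3 and 14.1 CPM in UCM and a log2 fold change of -0.30 (SE 0.12, edgeR adjusted p = 0.174). Its effective length was only 399 to 418 bases, so the same counts came to 53.9 ± 6.54 TPM in UCM, and HASPIN, which lies inside it on the other strand, took 1588 counts in ACM and 1571 in UCM; whether the libraries kept strand is not given in the sources used here. ITGAV, named after its values were seen, had 328.5, 353.1 and 305.7 CPM in ACM and 336.8, 239.7 and 248.0 CPM in UCM. Here UCM replicate 1 lay among the ACM libraries, and the log2 fold change of 0.26 (SE 0.13, edgeR adjusted p = 0.275) became 0.44 (adjusted p = 0.0060) without it. The other 4 alpha subunits tested, ITGA4, ITGA6, ITGA7 and ITGA11, had log2 fold changes from -0.33 to -0.11 with overlapping groups, and edgeR's adjusted p lay between 0.396 and 0.741. Their signs were not all kept. Without UCM replicate 1 ITGA11 had 0.22. With effective lengths as offsets ITGA4, ITGA7 and ITGA11 had 0.07, 0.04 and 0.33, and ITGA6 had -0.11. The summed alpha subunits were 324.0 ± 14.9 TPM in ACM and 288.0 ± 17.4 TPM in UCM and overlapped.

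In the ILK, PINCH and parvin group no gene passed the test, and DESeq2 and limma called none of the 6. At an unadjusted p at or below 0.05 in edgeR, 1 was higher (16.7%, with 11.9% of all genes) and 1 lower (16.7%, with 11.5%). PARVA, alpha-parvin, which links ILK to actin (chr11:12377563-12535356), had 40.5, 38.9 and 49.2 CPM in ACM and 50.6, 57.4 and 54.6 CPM in UCM. Every ACM library lay below every UCM library, though ACM replicate 3 and UCM replicate 1 differed by little. The means were 42.9 ± 5.55 and 54.2 ± 3.38 CPM, a log2 fold change of -0.34 (SE 0.10, edgeR adjusted p = 0.0788). The sign was the same in all 15 alternatives, and the adjusted p lay between 0.0098 and 0.267. PARVA passed the threshold in 3 of them: without ACM replicate 3 (log2 fold change -0.45, adjusted p = 0.0379), with a filter of at least 1 count in total (-0.33, adjusted p = 0.0098) and with the replicate number as a block (-0.34, adjusted p = 0.0300). With that filter edgeR's adjusted p of ICAM1 went from 0.0097 to 3.33e-27 at nearly the same log2 fold change (0.94 and 0.95). That of ITGA10 rose from 0.186 to 0.428. The smaller adjusted p of PARVA with that filter is therefore not read as a stronger result.

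PARVB, beta-parvin, competes with alpha-parvin for ILK. It had 29.9, 35.9 and 32.3 CPM in ACM and 28.5, 30.4 and 31.4 CPM in UCM, which overlapped, with a log2 fold change of 0.12 (SE 0.10, edgeR adjusted p = 0.496). SAMM50, which the annotation lets overlap PARVB on the same strand, had 3124 counts in ACM and 3441 in UCM. Per length PARVB was the more abundant parvin, at 36.5 ± 4.93 TPM in ACM and 31.6 to 34.0 TPM in UCM, with PARVA at 12.6 ± 0.490 and 17.2 ± 1.29 TPM. PARVA made up 27.8%, 23.6% and 26.2% of the summed TPM of both parvins in ACM and 33.3%, 35.5% and 34.1% in UCM. No ACM share reached the lowest UCM share, and the means differed by -8.45 percentage points (25.9% ± 2.15 and 34.3% ± 1.08), a description with no test.

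ILK, the pseudokinase that holds PINCH and parvin together, was one of the steadiest members, with 115.6, 117.5 and 113.9 CPM in ACM and 113.0, 113.8 and 113.7 CPM in UCM. Its ACM values were all above the UCM values, but by so little that the log2 fold change was 0.03 (SE 0.06, edgeR adjusted p = 0.837). LIMS2 (PINCH-2) had 11.2, 10.5 and 10.4 CPM in ACM and 6.96, 8.12 and 7.87 CPM in UCM. The groups of LIMS2 were apart, with a log2 fold change of 0.49 (SE 0.14, edgeR adjusted p = 0.0654), which passed with the replicate number as a block (adjusted p = 0.0398). LIMS1 (PINCH-1) had 74.8, 83.1 and 76.7 CPM in ACM and 76.1, 67.1 and 70.7 CPM in UCM, overlapping, with a log2 fold change of 0.13 (SE 0.08, edgeR adjusted p = 0.342). RSU1, which binds PINCH-1, had 145.0, 139.2 and 150.3 CPM in ACM and 150.8, 149.0 and 152.4 CPM in UCM. Its groups overlapped, with a log2 fold change of -0.06 (SE 0.06, edgeR adjusted p = 0.637).

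**Figure D3:**
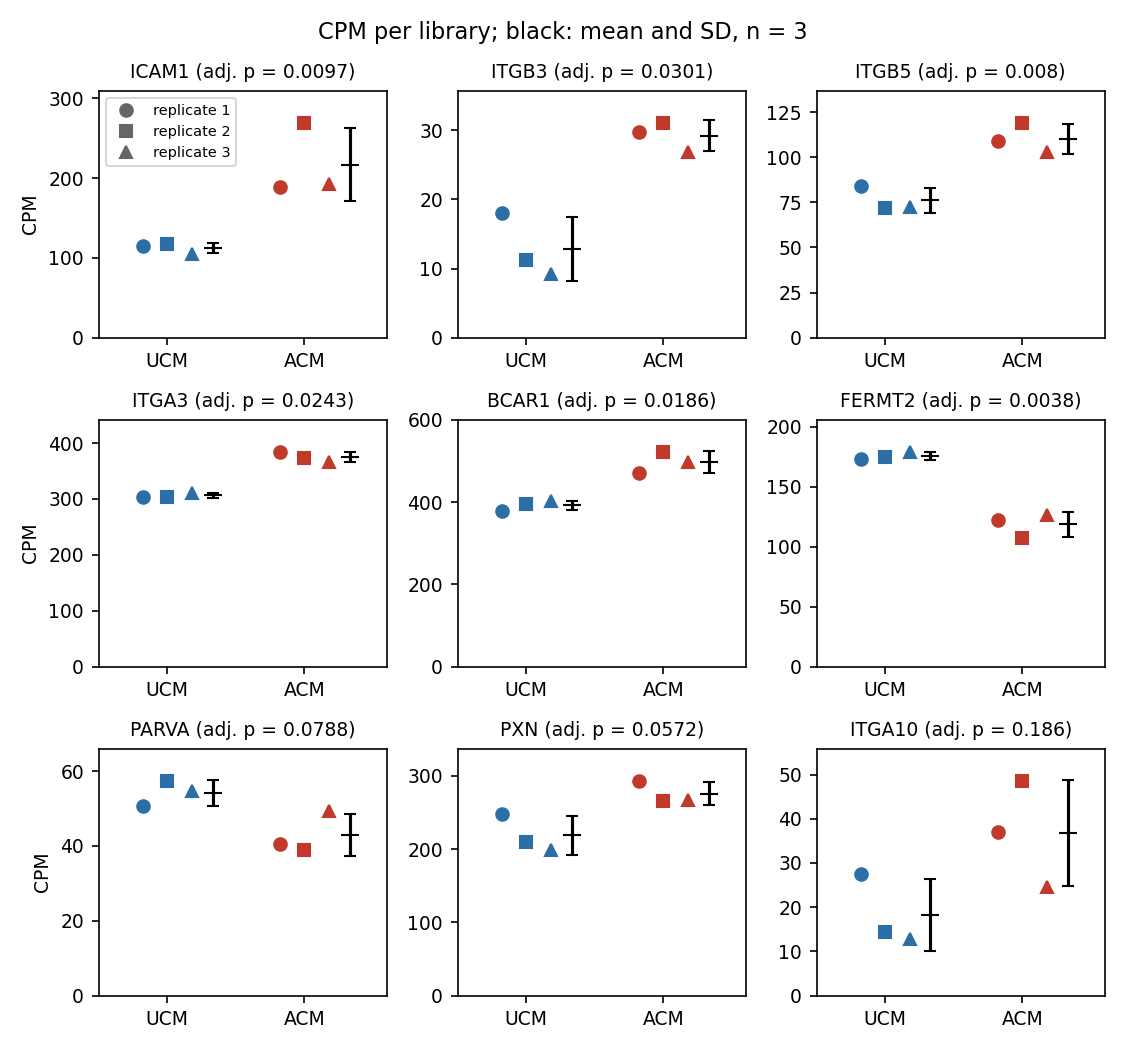
CPM of 9 members in each library (points; shape gives the replicate) with the mean and SD of each group in black, n = 3; the y axes start at 0 and differ between panels. FERMT2 and PARVA lie lower in every ACM library and the first 5 panels and PXN higher, while ITGA10 overlaps between 24.6 CPM in ACM and 27.5 CPM in UCM.

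Of the talins and kindlins, FERMT2 fell. Kindlin-2, its product, binds the beta tail and recruits ILK and paxillin, and it is the kindlin of most non-blood cells. FERMT2 (chr14:52857268-52952435) had 122.5, 106.9 and 126.1 CPM in ACM and 172.9, 174.7 and 179.0 CPM in UCM. The gap between the groups was wider than the spread within either, at 118.5 ± 10.2 and 175.5 ± 3.14 CPM. The log2 fold change was -0.57 (SE 0.08, 0.68-fold, edgeR adjusted p = 0.0038). It passed in all 15 alternatives, with log2 fold changes from -0.62 to -0.50 when 1 library was left out and an adjusted p of at most 0.0242 over the alternatives, and this was also the lowest fold of any member.

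FERMT1 (kindlin-1), the kindlin typical of epithelia, was rare, at 1.97 ± 0.327 TPM in ACM and 2.20 ± 0.480 TPM in UCM. FERMT2 made up 96.6% ± 0.457 of the summed TPM of both kindlins in ACM and 97.5% ± 0.465 in UCM. TLN1, the main talin, had 958.6, 879.5 and 966.6 CPM in ACM and 900.6, 809.4 and 799.5 CPM in UCM. The groups of TLN1 overlapped, with a log2 fold change of 0.16 (SE 0.08, edgeR adjusted p = 0.238). For TLN2 and FERMT1 the log2 fold change was 0.04 each (edgeR adjusted p = 0.816 and 0.930).

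None of the 8 actin linkers passed edgeR's test or was called by DESeq2 or limma. At an unadjusted p at or below 0.05, 1 was lower, ZYX (12.5%, with 11.5% of all genes). Of the 8, 6 had negative log2 fold changes, with a median of -0.07. ZYX, zyxin, which gathers actin regulators at strained adhesions, had 475.9, 440.0 and 481.3 CPM in ACM and 527.2, 518.9 and 524.8 CPM in UCM. Every ACM library was below the UCM libraries, with a log2 fold change of -0.17 (SE 0.07, edgeR adjusted p = 0.152). The alpha-actinins ACTN1 and ACTN4, which crosslink actin, also had all ACM values below UCM, with log2 fold changes of -0.14 (edgeR adjusted p = 0.297) and -0.06 (0.638). FLNA had 7674.3, 5834.8 and 6712.2 CPM in ACM and 7765.3, 6322.6 and 6458.8 CPM in UCM. Replicate 1 was highest in both groups, and the log2 fold change of -0.02 (SE 0.12, edgeR adjusted p = 0.933) turned to 0.07 without ACM replicate 2 and to 0.09 without UCM replicate 1. VCL, TNS3, VASP and TNS1 had log2 fold changes of -0.13, -0.09, 0.15 and 0.21 with overlapping groups, TNS1 on 5 to 14 counts per library.

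All 5 kinases and scaffolds had positive log2 fold changes. Every ACM library was above UCM for 4 (80%, with 13.9% of all genes), and 1 passed the test, BCAR1 (20%, with 3.35% of all genes). BCAR1 (chr16:75228181-75268053) encodes p130Cas, a scaffold that FAK and SRC phosphorylate. It had 470.5, 522.6 and 498.5 CPM in ACM and 379.4, 394.9 and 401.9 CPM in UCM. The lowest ACM value was well above the highest UCM value, with means of 497.2 ± 26.1 and 392.1 ± 11.5 CPM, a log2 fold change of 0.34 (SE 0.07, edgeR adjusted p = 0.0186). The call was lost without ACM replicate 2 (adjusted p = 0.0719), ACM replicate 3 (0.0548), UCM replicate 2 (0.0993) or UCM replicate 3 (0.0723) and with limma on TPM (0.0536), at log2 fold changes from 0.30 to 0.37.

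PXN, paxillin, the docking protein for FAK, had 293.5, 265.6 and 267.5 CPM in ACM and 248.5, 209.6 and 198.7 CPM in UCM. Its groups did not overlap and replicate 1 was highest in both. The log2 fold change of 0.33 (SE 0.09, edgeR adjusted p = 0.0572) became 0.44 (adjusted p = 0.0049) without UCM replicate 1, and DESeq2 gave an adjusted p of 0.0130. PTK2, which encodes FAK, had 174.2, 190.0 and 179.2 CPM in ACM and 155.5, 162.1 and 162.9 CPM in UCM. The FAK groups were apart by a small margin, with a log2 fold change of 0.18 (SE 0.06, edgeR adjusted p = 0.133). PTK2B, the FAK relative PYK2, was low, at 4.94, 5.52 and 5.76 CPM in ACM and 3.70, 3.44 and 3.97 CPM in UCM. Its log2 fold change was 0.55 (SE 0.18, edgeR adjusted p = 0.109), also with groups apart. SRC had a log2 fold change of 0.01 (SE 0.07, edgeR adjusted p = 0.938) with overlapping groups.

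ICAM1 (chr19:10271093-10286615), the ligand that leukocyte integrins bind, had 188.5, 269.3 and 192.7 CPM in ACM and 114.8, 117.7 and 105.3 CPM in UCM. The UCM libraries were close to each other, and ACM replicate 2 stood well above the other ACM libraries, which were themselves above UCM. The means were 216.8 ± 45.5 and 112.6 ± 6.49 CPM, a 1.92-fold difference with a log2 fold change of 0.94 (SE 0.14, edgeR adjusted p = 0.0097). It passed in all 15 alternatives, with an adjusted p of at most 0.0456, and the log2 fold change was 0.76 without ACM replicate 2. ACM replicate 2 was also the highest library for CD68, at 30.5 TPM beside 12.1 and 21.4 TPM in the other ACM libraries and 5.51 to 7.96 TPM in UCM; the part of this marker in the ICAM1 result was not tested, and PTPRC stayed at 0.06 to 0.18 TPM. ICAM4-AS1, which overlaps ICAM1 on the other strand, took 49 counts in ACM and 19 in UCM. The family members ICAM3 and ICAM5, also on chromosome 19, had log2 fold changes of 0.45 (SE 0.13, edgeR adjusted p = 0.0700) and 0.26 (SE 0.12, adjusted p = 0.224).

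**Figure D4:**
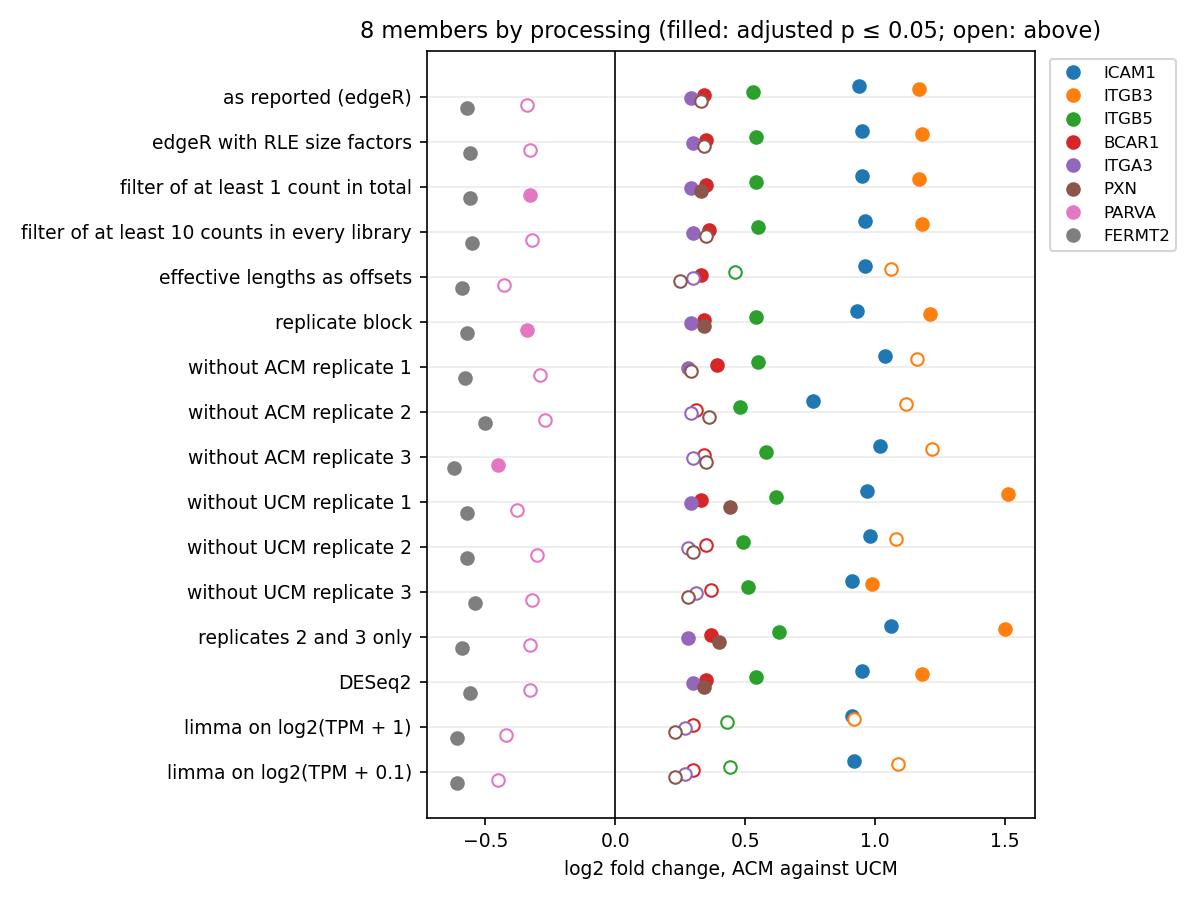
Log2 fold change of 8 members (x axis) as reported (top row) and under 15 alternative ways of processing (y axis); a filled point passed an adjusted p of 0.05 and an open point did not. ICAM1 and FERMT2 are filled in every row, ITGB5 in all but the 3 rows that use effective lengths or TPM, and PARVA in 3 rows.

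Effective length is an average over the transcripts of a gene, in which RSEM gives abundant transcripts more weight, so it moves when the mix of transcripts moves, and the choice of members did not use it. In limma's test none of the 37 members changed in effective length at an adjusted p at or below 0.05 (0.0138% of all genes did), and 1 did at an unadjusted p (5.12% of all genes). That was ITGB3, with 5175, 5325 and 5234 bases in ACM and 4689, 4913 and 4957 bases in UCM. All ACM values of ITGB3 were longer, by 0.11 on the log2 scale (SE 0.03, limma adjusted p = 0.782). The groups were also apart for ITGA4, at 3222, 3480 and 3392 bases in ACM and 3711, 3689 and 4455 bases in UCM, which makes 2 members of 37, where 9.19% of all genes did not overlap. PARVA ranged from 4241 to 5446 bases in ACM and from 4424 to 4646 bases in UCM, ICAM1 from 2662 to 2691 bases over all libraries and FERMT2 from 2878 to 2991 bases.

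Beyond the members, 141 other genes of the pathway were grouped in 5 lists, and of the 107 tested 10 rose (9.35%, with 3.35% of all genes) and 3 fell (2.8%, with 2.21%), with a median log2 fold change of 0.08. Most of what rose was matrix or adaptors. Among the matrix ligands of integrins, 4 of 28 tested rose (14.3%, with 3.35% of all genes) and none fell in edgeR's test. DESeq2 called 1 lower (CCN1, adjusted p = 0.0134) and limma none. At an unadjusted p at or below 0.05 in edgeR, 11 were higher (39.3%, with 11.9% of all genes) and 1 lower (3.57%, with 11.5%). The median log2 fold change was 0.27. TNC, the matrix protein tenascin-C, had 337.9, 436.8 and 287.9 CPM in ACM and 158.7, 144.8 and 142.6 CPM in UCM. All ACM libraries of TNC were far above UCM, with a log2 fold change of 1.25 (SE 0.14, edgeR adjusted p = 0.0050). The laminin chains LAMB1 and LAMA5 rose by 0.45 (edgeR adjusted p = 0.0138) and 0.36 (0.0397) on the log2 scale, and the thrombospondin THBS3 by 0.49 (0.0141).

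The adhesion adaptors moved both ways, with 4 of 31 higher (12.9%, with 3.35% of all genes), 3 lower (9.68%, with 2.21%) and a median of 0.02. SORBS2, PPFIBP1, TES and FHL2 rose by 0.63, 0.76, 0.53 and 0.39 on the log2 scale (edgeR adjusted p = 0.0152, 0.0192, 0.0370 and 0.0378). CNN2, calponin 2, ENAH, the actin elongation factor Mena, and AJUBA, a LIM protein of adhesions and junctions, had log2 fold changes of -0.40, -0.32 and -0.58 (edgeR adjusted p = 0.0123, 0.0218 and 0.0473). Among 30 signaling genes 1 rose, the kinase ABL1 (3.33%, with 3.35% of all genes). ABL1 had 530.5, 579.3 and 535.1 CPM in ACM and 385.4, 334.0 and 334.7 CPM in UCM, a log2 fold change of 0.64 (SE 0.08, edgeR adjusted p = 0.0023). Among 14 other integrins and activators 1 rose (7.14%, with 3.35% of all genes). This was CIB1, which binds integrin tails, by 0.29 on the log2 scale (edgeR adjusted p = 0.0474). None of the 4 other ICAMs and leukocyte ligands tested passed in edgeR or DESeq2. In edgeR 1 was higher at an unadjusted p at or below 0.05 (25%, with 11.9% of all genes). Limma on log2(TPM + 1) called ICAM3 (adjusted p = 0.0352). The counts moved with the library left out, as those over all genes did: 8, 4 and 6 genes rose without ACM replicates 1, 2 and 3, and 20, 2 and 3 without UCM replicates 1, 2 and 3, where 415, 197, 320, 738, 125 and 156 of all genes rose. ABL1 and TNC were in all 6 sets. With replicates 2 and 3 only, ABL1 was among the 21 genes that rose and TNC was not. The 3 that fell were down to 2 without any 1 of the ACM libraries or UCM replicate 1, CNN2 being in all 4 of these sets. No gene fell by edgeR's adjusted p without UCM replicate 2 or UCM replicate 3, where 0.474% and 0.420% of all genes did. In these sets 5 and 4 of the 111 tested were lower at an unadjusted p at or below 0.05. The share of all genes at that threshold is not given here.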

How the data were processed

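RNA-seq of 6 BT-549 libraries, 3 in ACM and 3 in UCM by their labels, was analysed. The authors used Trim Galore to trim the paired-end reads, STAR to align them (GRCh38) and RSEM to quantify genes; versions and the gene annotation are not given in the sources used here. The deposited expected counts are RSEM's estimated reads per gene, not scaled for depth. The deposited TPM are scaled in RSEM to effective length and to the same total in each library, and the deposited effective lengths are in bases. A deposited table of the authors' own comparison (base means, fold changes and p-values) was not used.

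Expected counts were rounded to whole numbers, filtered with filterByExpr and scaled by TMM, and ACM was compared with UCM by the robust quasi-likelihood test of edgeR 4.0.16 in R 4.3.3, with Benjamini-Hochberg adjustment over 14451 genes and a threshold of 0.05. Effective lengths were tested on the log2 scale with limma 3.58.1. DESeq2 1.42.0, limma on log2(TPM + 1) and log2(TPM + 0.1), RLE scaling, other filters (at least 1 count in total; at least 10 in every library), effective lengths as offsets, the replicate number as a block and leaving out each library were tried as alternatives. The scripts were tested on simulated counts. Gene symbols were taken from GENCODE 44 by Ensembl identifier, which matched 62541 of 63140 genes, and gene coordinates are those of GRCh38. Promoter sequences are from RefSeq, GRCh38.p14.

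The members and lists were chosen with earlier results of these data known. Values per library are given for members with an adjusted or unadjusted p at or below 0.05, for the ILK, PINCH and parvin group, for the member of each role with the highest TPM in UCM and for tested members with a log2 fold change of at least 0.58 in size. Of each other list, up to 5 genes with an adjusted p at or below 0.05 and the smallest p are named. Any other gene given with its value was chosen after its values were seen.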

Additional observations from a re-analysis of the deposited data

How the results depend on the processing

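ICAM1 and FERMT2 passed the threshold in their direction under all 15 alternatives tried. For members that rose (5 as reported) the count was 8 with a filter of at least 1 count in total, 2 with effective lengths as offsets, 1 with limma on log2(TPM + 1) and 1 on log2(TPM + 0.1), and 2 to 7 when 1 library was left out; members that fell (1 as reported) came to 2 with the filter of at least 1 count in total and 1 to 2 when 1 library was left out. Other pathway genes that rose (10 as reported) came to 21 with that filter, 4 with the offsets, 16 with DESeq2, 5 and 5 with limma on the 2 TPM scales and 2 to 20 when 1 library was left out, and those that fell (3 as reported) to 5 with that filter, 1 and 1 with limma and 0 to 2. Of all genes, 4.10% rose and 2.66% fell with that filter, 1.88% and 0.927% with the offsets, and 5.27% and 3.07% with DESeq2. With limma 1.59% and 1.62% rose on the 2 TPM scales, and 0.913% and 0.955% fell. With replicates 2 and 3 only, an alternative chosen after seeing the data, 8 members and 21 other pathway genes rose (7.07% of all genes). The log2 fold change of PARVA was -0.33 (edgeR adjusted p = 0.0098) with the filter of at least 1 count in total and -0.45 to -0.27 when 1 library was left out. That of FLNA ranged from -0.12 to 0.09 when 1 library was left out (-0.02 as reported) and turned positive without ACM replicate 2 (0.07) and UCM replicate 1 (0.09). The difference in the share of ITGB3 among beta subunits was 0.328 percentage points by TPM and 0.547 by CPM. Over all genes, 484 rose as reported, from 125 without UCM replicate 2 to 1045 with the filter of at least 1 count in total, and 320 fell, from 62 without UCM replicate 3 to 726 with replicates 2 and 3 only. The cause of these differences was not tested. Whether the replicate numbers pair the libraries is not given in the labels and was not settled by the values. Deviations of same-numbered ACM and UCM libraries correlated at 0.318, 0.035 and 0.177, and those of different numbers at -0.314 to 0.196. ACM replicate 3 correlated best with UCM replicate 2 (0.196). With the replicate number as a block, 7 members rose (18.9%, with 6.29% of all genes) and 2 fell (5.41%, with 4.86%). In that setting 15 other pathway genes rose and 4 fell, and no member changed in effective length. PARVA had a log2 fold change of -0.34 there (edgeR adjusted p = 0.0300). The 8 members with 0 to 10 counts in every library entered the test with the filter of at least 1 count in total, and none of them passed.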

Other observations

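For each of the 37 members tested, the UCM library whose CPM was nearest to the ACM mean was replicate 1 for 17 (45.9%), replicate 2 for 7 (18.9%) and replicate 3 for 13 (35.1%). Over all 14451 genes tested the shares were 40.6%, 29.1% and 30.3%.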
